A study of Mus musculus with 10 samples.

Results

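The 10 genes described here are known targets of the transcription factor p53 and were followed in mouse dendritic cells treated with thapsigargin under lipopolysaccharide (LPS), in cells without and with CD14. Of 12393 genes with a probe set of their own, they were Perp, Phlda3, Aen, Cdkn1a, Mdm2, Ccng1, Trp53inp1, Plk2, Zmat3 and Sesn1. All probe sets that the platform annotation assigns to these symbols were taken, which gave 19 of the 22690 probe sets on the array. Of the 19, 17 passed the filter on dim signals, among 11649 probe sets that did so. The 2 that did not were Aen 1451186_at, with scaled signals of 6.68 to 22.8, and Trp53inp1 1416927_at, with 2.94 to 36.8. The filter asked for a signal above 99.2 on at least 2 arrays, so a gene that is bright in 1 condition only could pass through that condition.

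The study measured 10 arrays of RNA from dendritic cells, derived from bone marrow in GM-CSF cultures of 7 to 10 days, from Cd14-/- C57BL/6 mice and C57BL/6 mice aged 6 to 8 weeks. Cultures were used when over 90% of the cells carried CD11c. Its stated purpose was to find apoptosis genes that depend on NFAT, a calcium-dependent transcription factor. The CD14-deficient arrays were LPS with thapsigargin at 48 and 60 h, LPS alone at 48 and 60 h, and 1 unstimulated culture harvested at 24 h, and the wild-type arrays followed the same plan. LPS was given at 1 µg/ml and thapsigargin at 50 nM. CD14 is the co-receptor that hands LPS to the receptor TLR4, and thapsigargin stops the SERCA pump, which empties calcium stores into the cytosol and disturbs protein folding. Each condition had 1 array at each time, with no thapsigargin without LPS, and how many mice gave the cells is not stated. The 48 and 60 h arrays of a condition are different times of treatment and not replicates.

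p53 is a transcription factor that is held at a low level by the ubiquitin ligase Mdm2 and accumulates after DNA damage and other stresses. It then binds DNA at paired copies of a short consensus and raises genes that stop the cell cycle, promote apoptosis, repair or metabolic adaptation, and, through Mdm2, shut off p53 itself. Its targets are also raised by other factors.

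Cd14 itself followed the labels, with scaled signals between 1.85 and 7.35 on the CD14-deficient arrays, under the floor of 13.4 set for dim signals, against 1499 on the unstimulated and 15538 to 17729 on the stimulated wild-type arrays. The dendritic cell markers Itgax and Cd74 were bright on all 10 arrays, at 750.4 to 7838 and 10915 to 15345. Others of the 14 dendritic cell markers were dim on some arrays, such as Cd209a at 3.58 to 501 and Dpp4 at 24.3 to 765. The macrophage markers Lyz2 and Csf1r were bright on all 10 arrays too, at 11038 to 14736 and 4199 to 10456. Bright signals alone therefore do not tell these cell types apart. The 6 measured T and NK cell markers summed to 36.3 to 134, and 2 of them were under the floor on every array. The arrays that stood apart were 2: the 3 control probe sets for 18S ribosomal RNA read 114 to 385 at 48 h in CD14-deficient cells with LPS and 217 to 685 at 60 h in wild-type cells with LPS, against 1426 or more on the other 8 arrays. The labelled cRNA yield was 15 µg for the first and 19 µg for the second, the lowest of the 10.

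The 10-base p53 half-site consensus was found in windows of 5 genes. Of these, 4 had at least 1 probe set that rose with thapsigargin in CD14-deficient cells, and Cdkn1a holds a pair. Phlda3, which rose too, has a window without a match. The promoter sequences of the 5 genes are shown. They come from the RefSeq windows of GRCm38.p6, 250 bases before to 50 bases after each annotated start, which held 10 windows for 7 of the 10 genes: Phlda3, Aen, Cdkn1a, Mdm2, Ccng1, Plk2 and Sesn1. The consensus reads the same on both strands. Capitals mark the half-sites.
Cdkn1a, chr17:29090872-29090971, + strand, half-sites beginning 73 and 51 bases before the start: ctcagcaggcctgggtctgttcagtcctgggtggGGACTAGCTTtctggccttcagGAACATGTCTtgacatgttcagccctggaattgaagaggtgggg
Mdm2, chr10:117710890-117710989, - strand, 186 bases before the start: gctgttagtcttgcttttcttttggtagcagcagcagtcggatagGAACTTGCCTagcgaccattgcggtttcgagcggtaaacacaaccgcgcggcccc
Ccng1, chr11:40755417-40755516, - strand, 185 bases before the start: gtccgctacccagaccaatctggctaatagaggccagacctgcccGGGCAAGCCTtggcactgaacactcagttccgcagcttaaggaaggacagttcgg
Aen, chr7:78895927-78895956, + strand, 121 bases before 1 annotated start and 10 bases after the other: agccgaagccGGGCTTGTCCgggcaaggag
Sesn1, chr10:41887221-41887320, + strand, 173 bases before the start: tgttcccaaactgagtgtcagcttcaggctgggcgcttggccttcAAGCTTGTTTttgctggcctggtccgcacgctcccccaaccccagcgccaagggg

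The half-site was found in 6 of the 10 windows, against 8.36% of all 32851 windows of the same length. Of the 6, 2 are the overlapping Aen windows, which hold the same site. A pair of half-sites with at most 13 bases between them was found in 1 window, that of Cdkn1a with a spacer of 12 bases, against 0.0731% of all windows. The 10 bases directly after the second Cdkn1a half-site match the consensus in all but the first base, so they stand in lower case. With that half-site they hold the pair of CATG cores counted below. Cdkn1a and Sesn1 have 2 windows each, and their distances are from the start of the window with the match. The windows of Phlda3 and Plk2, and 1 each of Cdkn1a and Sesn1, held no match of these letters. Another 3 forms of the motif were looked at: a pair of 4-base cores with a spacer of 6 to 19 bases was in 5 of 10 windows, against 51.8% of all windows, a pair of CATG cores 6 bases apart was in 1 of 10, against 0.712%, and a pair with up to 3 mismatches was in 5 of 10, against 15.6%. A match is a description of the letters and not of binding.

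With thapsigargin added to LPS in CD14-deficient cells, Perp, Phlda3, Aen, Cdkn1a, Mdm2 and Ccng1 each had at least 1 probe set that rose, 8 of the 17 tested probe sets in all, and none fell. Of all 11649 probe sets 3.68% rose in this comparison. The median log2 change was 0.85 over the 17 probe sets and 0.0045 over all tested probe sets. The genes, and the gene lists used further below, were chosen with earlier results of these data known. These counts and medians, here and below, therefore describe the members and are no independent test of them as a set. The test was limma on log2 signals with Benjamini-Hochberg adjustment over the 11649 probe sets, with a threshold of 0.05. It rests on 3 residual degrees of freedom and does not measure the spread between cultures or mice.

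Perp, a tetraspan membrane protein that acts in p53-dependent apoptosis, changed most of the 10 genes. Its scaled signal was 428 and 540.3 in CD14-deficient cells with LPS and thapsigargin at 48 and 60 h, against 24.2 and 28.2 in CD14-deficient cells with LPS alone. The groups lay far apart, 17.7-fold at 48 h and 19.2-fold at 60 h, with the LPS signals close to the floor of 13.4, where a low level and background are hard to tell apart. Perp rose by 4.20 ± 0.23 on the log2 scale (SE, adjusted p = 0.0131 by limma), which ranked 3 of 11649 from the top. With a pseudocount of 16 in place of the floor, the rise of Perp was 3.56 (adjusted p = 0.0127 by limma).

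Phlda3 encodes a small lipid-binding protein that competes with the survival kinase Akt at the membrane. It read 1851 and 2102 with LPS and thapsigargin in CD14-deficient cells, against 579 and 642 with LPS alone. All the thapsigargin signals were above all the LPS signals, by 3.20-fold at 48 h and 3.28-fold at 60 h. The fitted rise was 1.69 ± 0.16 (log2, SE, adjusted p = 0.0144 by limma).

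Aen encodes an apoptosis-enhancing nuclease. Its probe set 1423957_at read 633 and 543 with LPS and thapsigargin in CD14-deficient cells, against 219 and 238 with LPS alone, and rose by 1.36 ± 0.20 (log2, SE, adjusted p = 0.0247 by limma). The dimmer probe set 1450506_a_at read 213 and 179, against 27.8 and 108. Both thapsigargin signals were higher there too, but its fitted change of 1.83 ± 0.65 did not pass (adjusted p = 0.134 by limma). Its LPS signal at 48 h lay far under that at 60 h, and that 48 h array is the one with the low 18S controls.

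Cdkn1a, the cyclin-dependent kinase inhibitor p21 that halts cells before S phase, rose on both of its probe sets. The probe set 1424638_at read 7898 and 7352 with LPS and thapsigargin in CD14-deficient cells, against 4894 and 3911 with LPS alone. The probe set 1421679_a_at read 5862 and 5404, against 3134 and 2602. The groups did not overlap in either, and both probe sets rose, by 0.80 ± 0.15 (adjusted p = 0.0357 by limma) and 0.98 ± 0.15 (adjusted p = 0.0259 by limma) on the log2 scale. These rises, 1.61-fold to 2.08-fold at each time, stood on signals of 2602 to 4894 without thapsigargin.

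Ccng1, cyclin G1, which brings a phosphatase to Mdm2, gave different answers from its 3 probe sets. The probe set 1450016_at read 3536 and 3519.7 with LPS and thapsigargin in CD14-deficient cells, against 1240 and 1494 with LPS alone, and rose by 1.37 ± 0.16 (log2, SE, adjusted p = 0.0191 by limma). The probe set 1420827_a_at, the brightest by its mean over the arrays, read 2981 and 3134, against 3036 and 3054, with a change of 0.01 ± 0.14 (adjusted p = 0.984 by limma). The groups overlapped in that one, and so Ccng1 cannot be given a single direction. The third, 1450017_at, read 916 and 940.6, against 570.5 and 619, a change of 0.64 ± 0.21 that did not pass (adjusted p = 0.121 by limma).

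Mdm2, the ubiquitin ligase that degrades p53 and is itself raised by it, rose on both of its probe sets in CD14-deficient cells. The probe set 1427718_a_at read 1394 and 1631 with LPS and thapsigargin, against 299 and 629.7 with LPS alone, and rose by 1.80 ± 0.31 (log2, SE, adjusted p = 0.0317 by limma). The brighter probe set 1423605_a_at read 2287 and 2379, against 1318 and 1279, and rose by 0.85 ± 0.18 (adjusted p = 0.0495 by limma, just inside the threshold). The groups did not overlap in either, but the size differed between the probe sets, and the LPS signal at 48 h was the lower one on the first only.

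Trp53inp1 encodes a nuclear protein that promotes p53's activity on apoptosis genes. It read 2409.5 and 1748 with LPS and thapsigargin in CD14-deficient cells, against 1358 and 647 with LPS alone. The thapsigargin signals were higher at each time, yet each condition differed between its 48 and 60 h arrays. The fitted change of 1.13 ± 0.30 did not pass (log2, SE, adjusted p = 0.0760 by limma).

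Plk2, Zmat3 and Sesn1 did not pass in CD14-deficient cells, and their LPS arrays disagreed between 48 and 60 h. Plk2, a polo-like kinase, read 2209 and 2793 with LPS and thapsigargin, against 853 and 3186 with LPS alone, a change of 0.59 ± 0.48 (log2, SE, adjusted p = 0.458 by limma). Zmat3, a zinc-finger protein that binds RNA, read 258 and 315, against 333 and 246. Sesn1, a sestrin that restrains the growth kinase complex mTORC1, read 365 and 359.8 on its brightest probe set, against 531 and 293. In all of these both thapsigargin signals lay between the LPS signals of 48 and 60 h. The fitted changes were -0.01 ± 0.27 for Zmat3 and -0.12, 0.03 and -0.25 for the 3 Sesn1 probe sets. Of the Sesn1 probe sets 2 carry the suffix _s_at, which marks probes that can match more than 1 transcript.

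**Figure D1:**
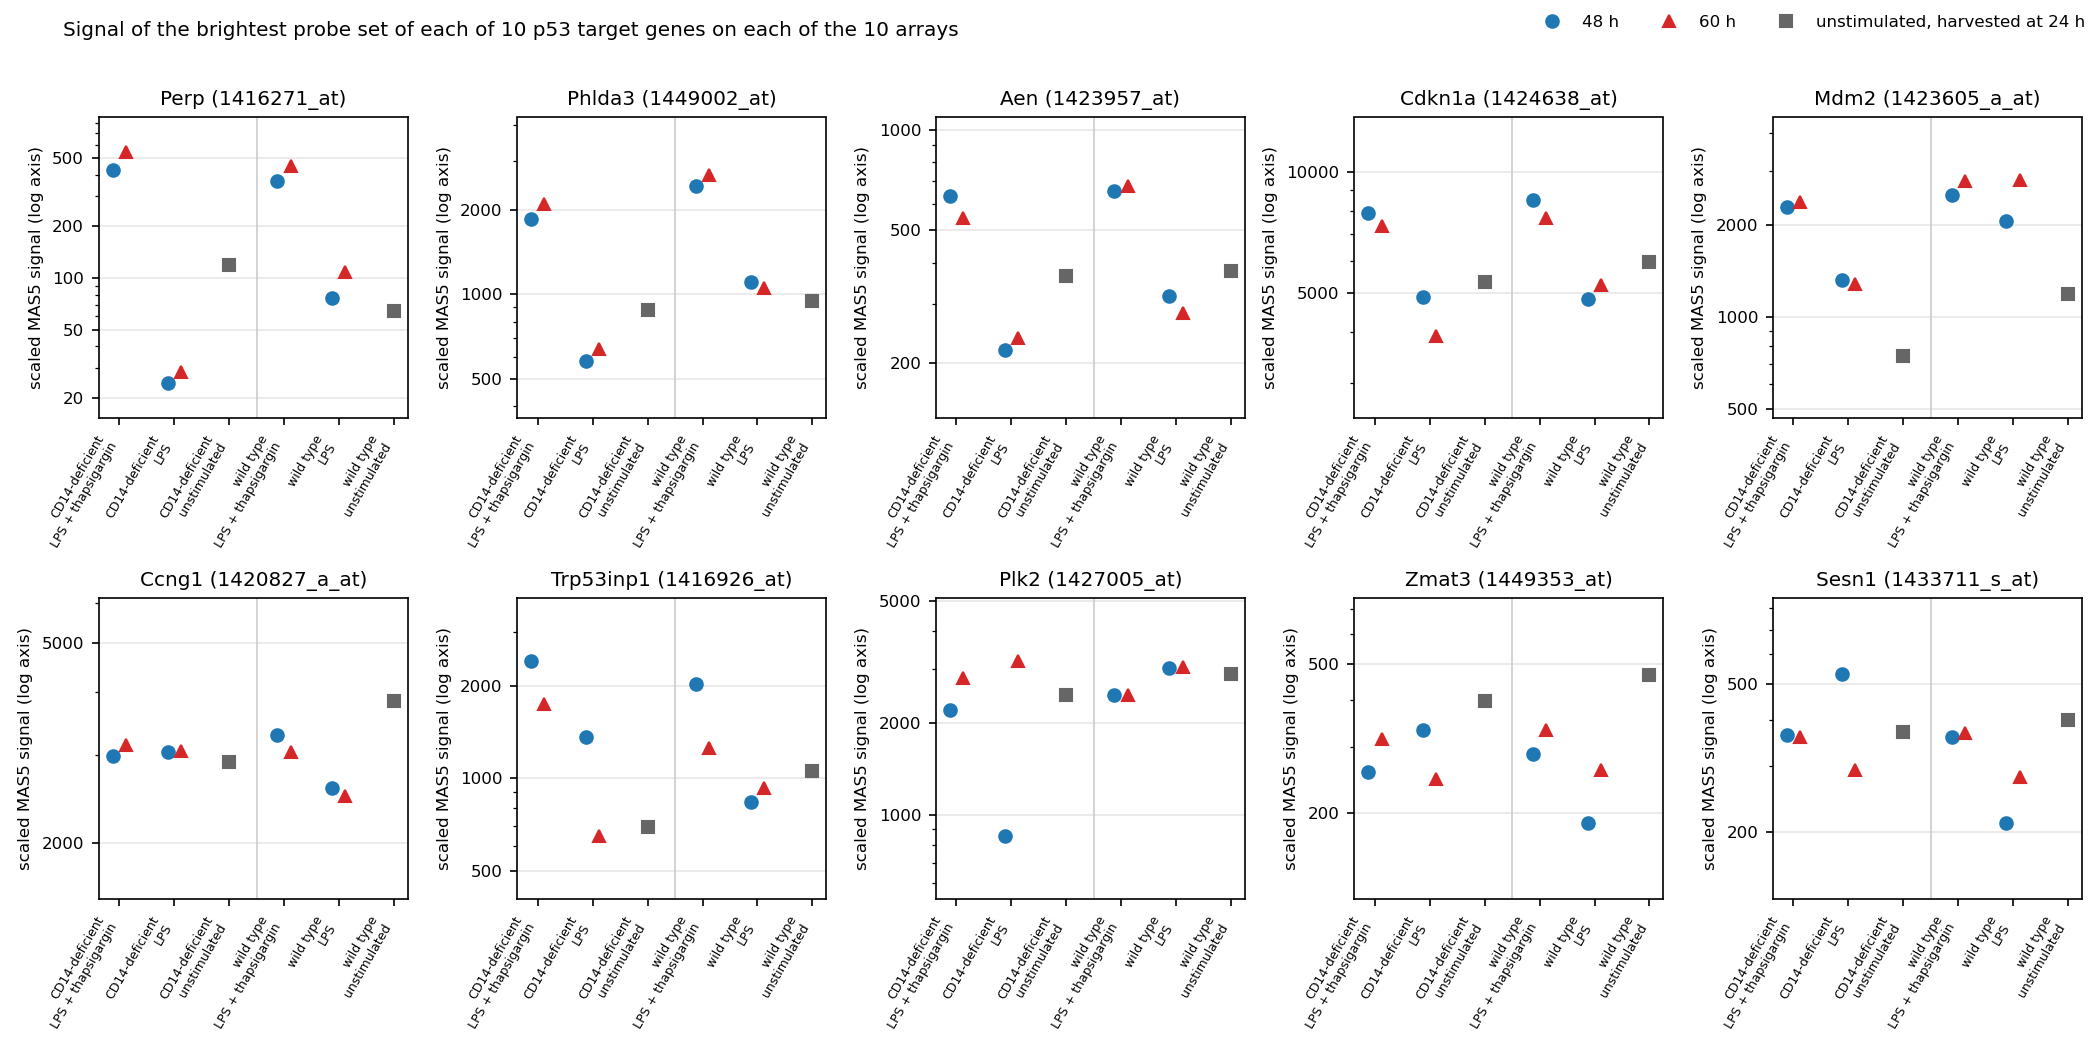
Scaled MAS5 signal (log axis) of the probe set with the highest mean signal of each of the 10 genes, 1 point per array; from left to right are CD14-deficient LPS + thapsigargin, LPS and unstimulated, then the same for wild type, with circles for 48 h, triangles for 60 h and squares for unstimulated cells. Perp, Phlda3, Aen, Cdkn1a, Mdm2 and Trp53inp1 have both thapsigargin signals above both LPS signals in CD14-deficient cells, while Ccng1 1420827_a_at, Plk2, Zmat3 and Sesn1 do not.

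The call count in CD14-deficient cells depended on single arrays. It fell to none, as over the whole array, when either CD14-deficient or either wild-type LPS and thapsigargin array was left out. It also fell, as over the whole array, when either wild-type LPS array was left out. It was 9, all higher, when the 48 h array of CD14-deficient cells with LPS was left out, where 13.6% of all probe sets were called higher. It was 12 when the 60 h one was, where 38.1% of all probe sets were called, and of the 12 1 was lower, Sesn1 1454699_at at -1.11. Over the same omissions Perp stayed between 4.12 and 4.28, Phlda3 between 1.64 and 1.75 and Aen 1423957_at between 1.24 and 1.48 on the log2 scale, while Mdm2 1427718_a_at ran from 1.28 to 2.32. Without a model, 5 of the 17 probe sets were at least 2-fold higher with thapsigargin at both times, against 3.31% of all probe sets. Both thapsigargin signals were above both LPS signals in 11 of 17 probe sets, from 7 genes, against 27.5% of all probe sets.

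In wild-type cells no probe set on the array passed for thapsigargin by limma, so the call rate over all 11649 was 0%, with 1096 at an unadjusted p under 0.05. Among the 17 probe sets 8 had an unadjusted p under 0.05, and the smallest adjusted p was 0.134. The largest fitted changes among them were those of Perp, Phlda3 and Aen, in that order. The median log2 change was 0.58 over the 17 probe sets and 0.093 over all tested probe sets.

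Perp read 371 and 453 in wild-type cells with LPS and thapsigargin, against 76.7 and 108 in wild-type cells with LPS alone. The signals did not overlap and stood 4.83-fold apart at 48 h and 4.18-fold at 60 h, with a fitted change of 2.17 ± 0.23 (log2, SE, adjusted p = 0.134 by limma), ranked 16 of 11649. Phlda3 read 2425 and 2668, against 1106 and 1051, a change of 1.24 ± 0.16 (adjusted p = 0.141 by limma). Aen 1423957_at read 653 and 679, against 318 and 283, a change of 1.15 ± 0.20 (adjusted p = 0.207 by limma). For each of these genes the thapsigargin signals were above the LPS signals at both times.

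Cdkn1a and Ccng1, the cell-cycle genes, had smaller changes in wild-type cells than Perp, Phlda3 and Aen, and none passed. Cdkn1a 1424638_at read 8539 and 7702 with LPS and thapsigargin, against 4851 and 5229.8 with LPS alone, a change of 0.69 ± 0.15 (log2, SE, adjusted p = 0.267 by limma). Its other probe set had a change of 0.53 ± 0.15. Ccng1 1450016_at read 3719.9 and 3793, against 2395 and 2221, a change of 0.70 ± 0.16 (adjusted p = 0.298 by limma). The groups did not overlap in these. Ccng1 1450017_at had a change of 0.98 ± 0.21 (adjusted p = 0.270 by limma).

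Mdm2 did not pass in wild-type cells. Its probe set 1427718_a_at read 1858 and 1784 with LPS and thapsigargin, against 1825 and 1755 with LPS alone, a change of 0.02 ± 0.31 on the log2 scale. The probe set 1423605_a_at read 2506 and 2788, against 2063 and 2802, a change of 0.14 ± 0.18. The signals overlapped in both probe sets. Trp53inp1 read 2019.9 and 1256, against 837 and 933, a change of 0.85 ± 0.30 (adjusted p = 0.467 by limma), with the larger gap at 48 h. Plk2 had a change of -0.29 ± 0.48, and its thapsigargin signals of 2472 and 2463 were under the LPS signals of 3012.5 and 3034.

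Without a model, 4 of the 17 probe sets were at least 2-fold higher with thapsigargin at both times in wild-type cells, against 0.944% of all probe sets. Both thapsigargin signals were above both LPS signals in 12 of 17 probe sets, from 8 genes, against 29.1% of all probe sets. They were below them in 2 of the 17, against 1889 of all 11649. The wild-type calls depended on the CD14-deficient LPS arrays, which are not part of the comparison but feed the shared spread: without the 48 h one 8 probe sets passed, where 5.78% of all were called, and without the 60 h one 8, where 5.96% were, with the same fitted changes. Without both arrays of low 18S signal, an alternative chosen after the data were seen, 10 passed, where 14% of all were called, Perp with a change of 2.26 (adjusted p = 0.00917 by limma), where its adjusted p ran from 0.00794 to 0.999 over all alternatives.

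**Figure D2:**
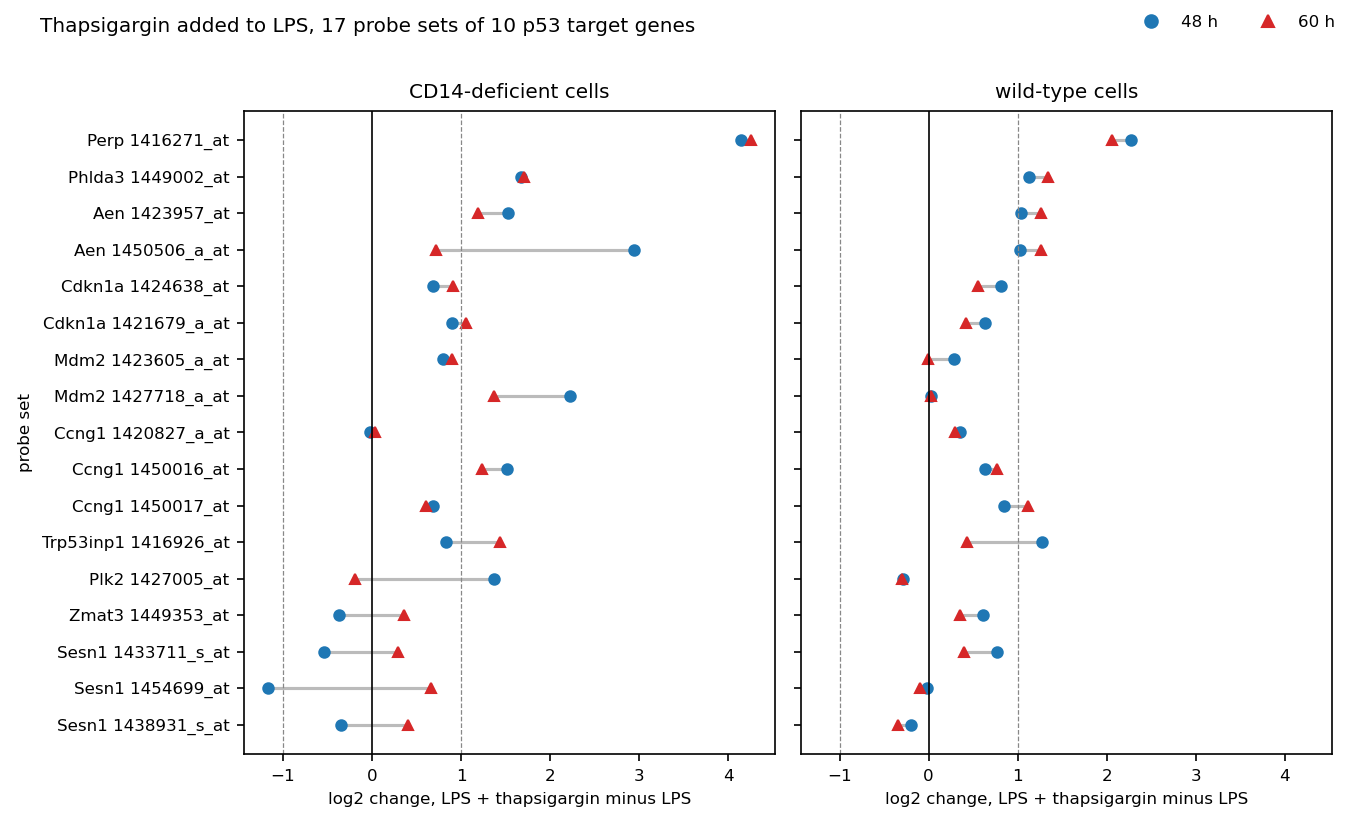
Log2 change with thapsigargin (LPS + thapsigargin minus LPS) of each of the 17 tested probe sets in CD14-deficient cells (left) and wild-type cells (right), with circles for 48 h, triangles for 60 h and dashed lines at a 2-fold change. Perp lies beyond 4 in CD14-deficient cells and beyond 2 in wild-type cells at both times, and Mdm2 1427718_a_at lies beyond 1 in CD14-deficient cells and near 0 in wild-type cells.

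**Figure D3:**
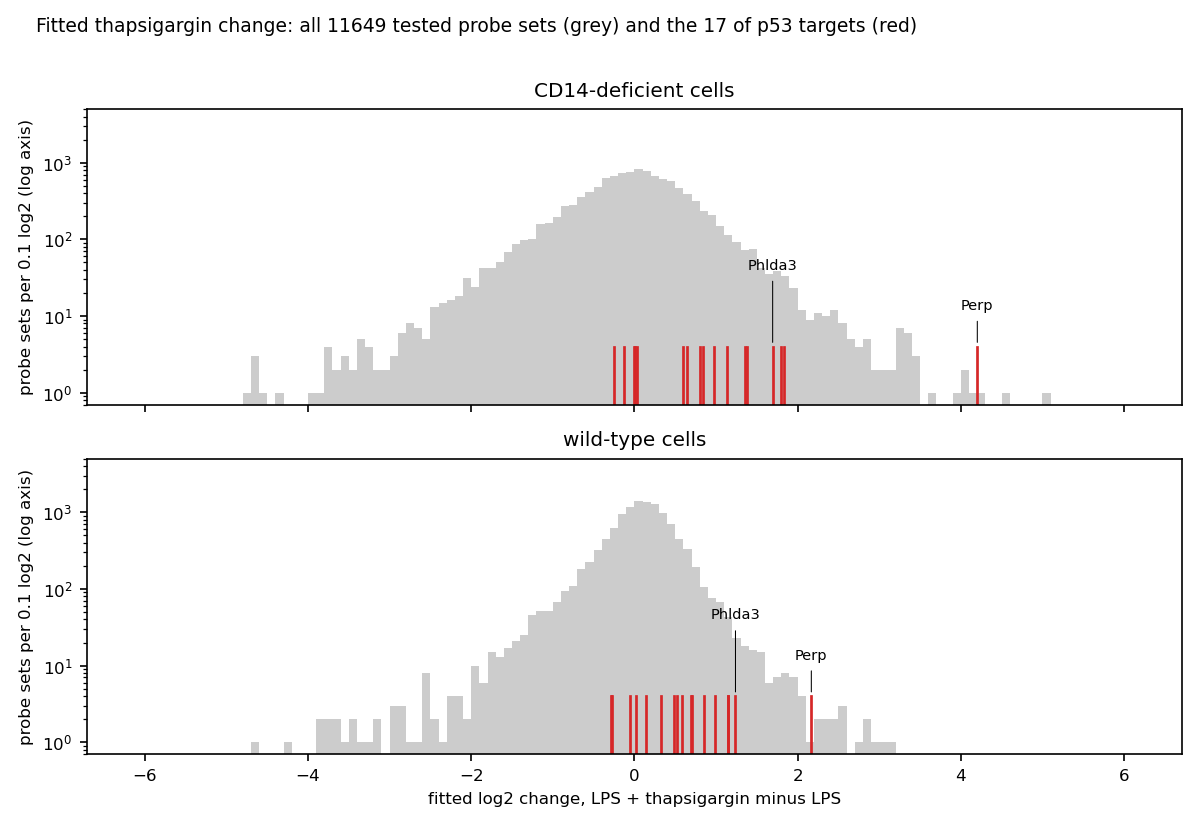
Number of probe sets (log axis) by fitted log2 change with thapsigargin for all 11649 tested probe sets (grey), with the 17 of the p53 targets as red lines, in CD14-deficient cells (top) and wild-type cells (bottom). Perp at 4.20 in CD14-deficient cells and 2.17 in wild-type cells stands in the upper tail of each panel, and the other red lines run from just below 0 into the upper side.

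The thapsigargin change was then set between the genotypes, as CD14-deficient minus wild type. No probe set passed by limma, a call rate of 0% of 11649, with 1588 at an unadjusted p under 0.05, of which 4 were among the 17. The differences were 2.03 ± 0.32 for Perp (log2, SE, adjusted p = 0.181 by limma), 1.77 ± 0.44 for Mdm2 1427718_a_at (adjusted p = 0.243 by limma), 0.71 ± 0.25 for Mdm2 1423605_a_at (adjusted p = 0.318 by limma) and 0.67 ± 0.23 for Ccng1 1450016_at (adjusted p = 0.306 by limma). Aen 1423957_at and Cdkn1a 1424638_at had small differences, 0.21 ± 0.28 and 0.11 ± 0.21. A larger change in CD14-deficient cells was therefore not shown for any gene with all arrays.

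When the 48 h array of CD14-deficient cells with LPS was left out, the difference passed for Perp at 2.11 (adjusted p = 0.0316 by limma) and for Mdm2 1427718_a_at at 1.25 (adjusted p = 0.0382 by limma), where 5.06% of all probe sets passed. Over all alternatives the adjusted p of the difference ran from 0.0125 to 0.873 for Perp and from 0.00590 to 0.873 for this Mdm2 probe set. Without the one at 60 h, 6 member probe sets passed, where 23.2% of all did, among them Perp at 1.96 and Mdm2 1427718_a_at at 2.29, and Sesn1 1433711_s_at in the other direction at -1.21. With both arrays of low 18S signal left out, Perp, Mdm2 1427718_a_at and Ccng1 1450016_at passed, where 14.7% of all probe sets did.

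Between the genotypes, Perp and Mdm2 1427718_a_at were lower in CD14-deficient than in wild-type cells under LPS, 2 of the 17 probe sets, where 2.55% of all 11649 were lower. These comparisons share the CD14-deficient LPS arrays with the thapsigargin comparison in CD14-deficient cells, so a low signal there enters both.

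For Perp the LPS signals were 24.2 and 28.2 in CD14-deficient cells, against 76.7 and 108 in wild-type cells, a difference of -1.80 ± 0.23 (log2, SE, adjusted p = 0.0247 by limma). For Mdm2 1427718_a_at they were 299 and 629.7, against 1825 and 1755, a difference of -2.04 ± 0.31 (adjusted p = 0.0329 by limma). The genotypes did not overlap at either time in these. Another 4 values lay close to the threshold without passing: -0.82 ± 0.16 for Phlda3 (adjusted p = 0.0504 by limma), -0.89 ± 0.18 for Mdm2 1423605_a_at (adjusted p = 0.0517 by limma), -0.76 ± 0.16 for Ccng1 1450016_at (adjusted p = 0.0574 by limma) and -0.56 ± 0.15 for Cdkn1a 1421679_a_at (adjusted p = 0.0859 by limma). Aen 1423957_at had -0.39 ± 0.20 and Cdkn1a 1424638_at -0.20 ± 0.15.

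Both CD14-deficient LPS signals were below both wild-type LPS signals in 7 of the 17 probe sets, from 6 genes, against 21.3% of all probe sets. They were above them in 2 of the 17, against 3152 of all 11649. When the 48 h array of CD14-deficient cells with LPS was left out, 6 probe sets passed as lower, where 8.07% of all did, among them Perp at -1.88 and Mdm2 1427718_a_at at -1.53. Without the one at 60 h 12 passed, 8 lower and 4 higher, where 41.2% of all probe sets passed, and when any 1 of the 6 other stimulated arrays was left out none did.

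With LPS and thapsigargin, none of the 17 probe sets passed between the genotypes, where 3 of all 11649 did, or 0.0258%. No member had an unadjusted p under 0.05 there, and 446 probe sets did. Perp read 428 and 540.3 in CD14-deficient cells, against 371 and 453 in wild-type cells, a difference of 0.23 ± 0.23. Mdm2 1427718_a_at had -0.27 ± 0.31 and Phlda3 -0.37 ± 0.16. Leaving out any single stimulated array gave 0 calls here as well.

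**Figure D4:**
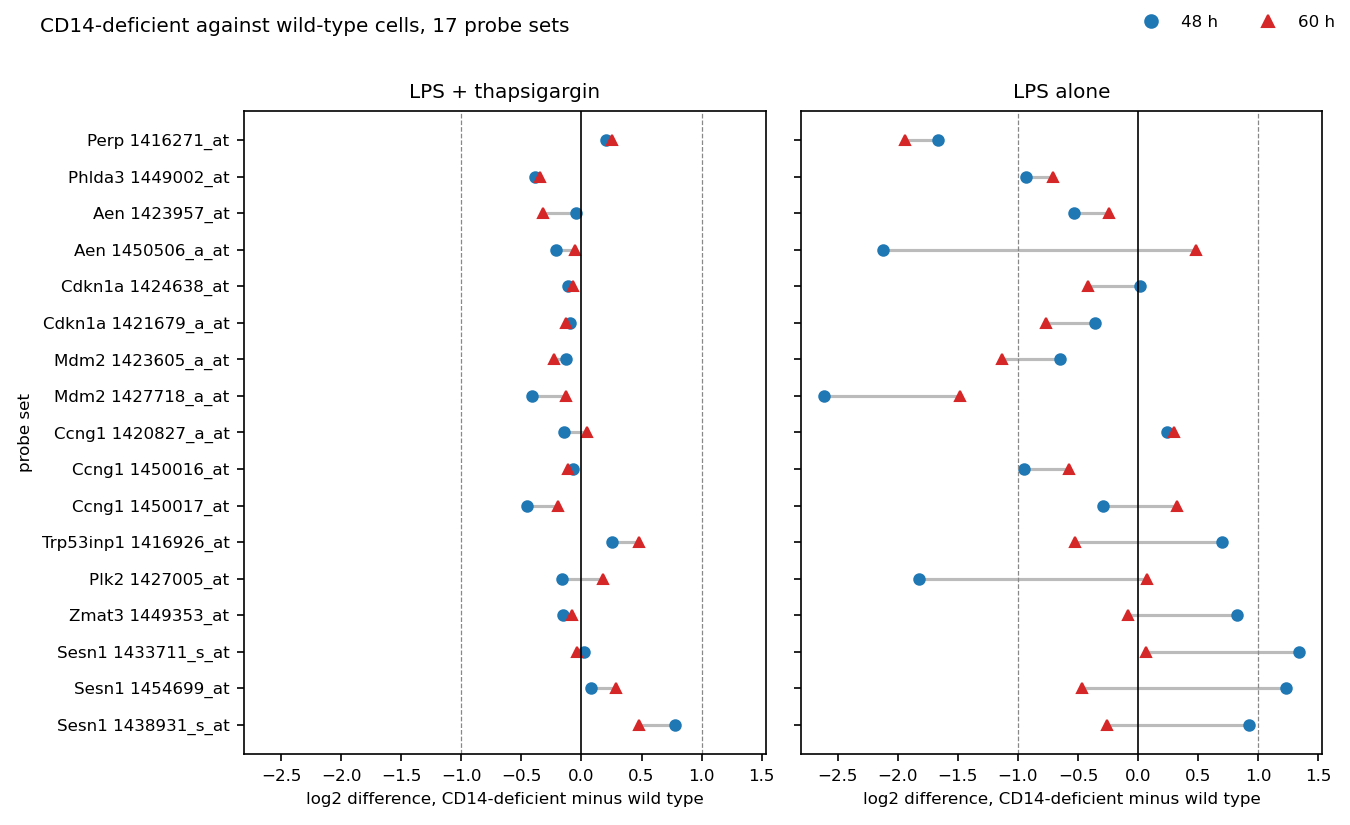
Log2 difference between genotypes (CD14-deficient minus wild type) of the 17 tested probe sets under LPS + thapsigargin (left) and LPS alone (right), with circles for 48 h, triangles for 60 h and dashed lines at a 2-fold difference. Perp and Mdm2 1427718_a_at lie below -1 at both times under LPS alone and within 0.5 of 0 under LPS + thapsigargin, and Aen 1450506_a_at and Plk2 lie low at 48 h only.

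The LPS response itself was set against 1 unstimulated array per genotype, harvested at 24 h, so LPS and the time in culture cannot be told apart. In CD14-deficient cells Perp fell, with 24.2 and 28.2 under LPS against 119 unstimulated, a change of -2.35 ± 0.29 (log2, SE, adjusted p = 0.0249 by limma). It was the only one of the 17 probe sets that passed, where 1.39% of all probe sets fell. Leaving out the 60 h array of CD14-deficient cells with LPS gave 7 calls among the 17, 2 higher and 5 lower, where 36.7% of all probe sets were called. Leaving out both arrays of low 18S signal gave 8, 3 higher and 5 lower, where 24.9% of all were, and leaving out any of the 6 stimulated arrays other than the CD14-deficient LPS ones gave none.

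In wild-type cells 3 of the 17 probe sets rose with LPS, where 6.39% of all probe sets rose. Mdm2 1427718_a_at read 1825 and 1755 under LPS, against 510.0 unstimulated, a change of 1.66 ± 0.40 (log2, SE, adjusted p = 0.0448 by limma). Mdm2 1423605_a_at changed by 0.95 ± 0.23 (adjusted p = 0.0452 by limma). Ccng1 1450016_at read 2395 and 2221, against 1182 unstimulated, a change of 0.94 ± 0.21 (adjusted p = 0.0360 by limma). Perp had 76.7 and 108 under LPS against 64.3 unstimulated, a change of 0.34 ± 0.29 that did not pass. Leaving out either CD14-deficient LPS array gave 9 calls, 3 higher and 6 lower, where 41.1% of all probe sets were called, and leaving out any of the 6 other stimulated arrays gave none.

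The levels of the genes were compared only within a probe set, since probe sets differ in brightness for reasons of design. Over the 10 arrays the log2 signals of Perp ran alongside those of Phlda3 (Pearson r = 0.96), Aen (r = 0.94) and Cdkn1a (r = 0.90), each by its brightest probe set. The r of Perp was 0.05 with Ccng1, 0.01 with Zmat3 and -0.01 with Sesn1. Among 7474 genes, those with the most similar pattern were Bub3 and Phlda3 for Perp (r = 0.97 and 0.96), Gpn1 and Mrps18b for Phlda3 (both 0.96), Mphosph10 and Pvt1 for Aen (both 0.97), Cdr2 and Gne for Cdkn1a (0.97 and 0.95) and Rab22a and Klhdc2 for Mdm2 (both 0.97). For Ccng1 the closest, Mavs and Wdr4, reached only 0.82 and 0.81. For the other genes they were Stat5a and Gadd45gip1 for Trp53inp1 (0.94 and 0.93), Ndufa12 and Chchd10 for Plk2 (both 0.97), Ptp4a3 and Iars for Zmat3 (0.96 and 0.94) and Rps19 and Akap17b for Sesn1 (both 0.95). The points are the same 10 arrays throughout, in treatment groups that stand apart, so these values describe shared patterns over the conditions.

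Of a list of 36 other p53 targets, 30 were measured and 27 tested by their brightest probe set. In CD14-deficient cells 2 rose with thapsigargin, 1 fell and 24 did not pass, where 3.68% of all probe sets rose and 3.03% fell. The median log2 change was 0.05, against -8.1e-05 over all genes by their brightest probe set. The growth arrest gene Gadd45a read 1067 and 1589.5 with LPS and thapsigargin, against 492 and 561 with LPS alone, and rose by 1.31 ± 0.21 (log2, SE, adjusted p = 0.0269 by limma). The apoptosis gene Siva1 read 1923 and 1668, against 793 and 715, and rose by 1.25 ± 0.17 (adjusted p = 0.0227 by limma). Dram1, a lysosomal protein of autophagy, read 228 and 390.2, against 688 and 1390.2, and fell by 1.71 on the log2 scale, ± 0.27 (adjusted p = 0.0266 by limma). In wild-type cells none of the 27 passed, with a median of 0.19, against 0.11 over all genes by their brightest probe set. Of a list of 23 genes that regulate p53, 14 were tested and none passed in either genotype.

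A list of 20 genes known to fall when p53 is active, most of them of DNA synthesis and mitosis, had 18 tested members. In CD14-deficient cells 5 fell with thapsigargin, where 3.03% of all probe sets fell, 13 did not pass, none had a positive change, and the median was -1.39. Rrm2, a subunit of ribonucleotide reductase, read 23.0 and 39.3 with LPS and thapsigargin, against 303 and 289.5 with LPS alone, and fell by 3.30 on the log2 scale, ± 0.29 (adjusted p = 0.0141 by limma). Mki67 fell by 2.85, Ccna2 by 2.70, Bub1 by 2.18 and Birc5 by 2.08, and the thapsigargin signals of the 5 genes were 23.0 to 55.3, near the floor. In wild-type cells none of the 18 passed, and the median was 0.10. Of the 5, 4 had wild-type LPS signals between 24.1 and 44.2 with no thapsigargin, and Mki67 had 178 and 207.

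Some markers of other cells changed with thapsigargin. Of all probe sets 3.03% fell in CD14-deficient cells, and none passed in wild-type cells. The 9 measured neutrophil markers summed to 4785 and 3245 in CD14-deficient cells with LPS and thapsigargin, against 8445 and 8442 with LPS alone, and to 4521 and 4124, against 10417 and 12275, in wild-type cells. Most of each of these sums came from Lcn2, at 4010.5 and 2532, against 6533 and 6172, in CD14-deficient cells. Of the 5 tested, S100a8 and Camp fell in CD14-deficient cells and none passed in wild-type cells, and 1 of the 9 was under the floor on every array. Dim, untested markers went the other way. Ltf read 53.4 and 36.4, against 8.57 and 16.1, in CD14-deficient cells and 45.7 and 30.5, against 16.2 and 12.2, in wild-type cells. Elane and Mpo were higher with thapsigargin at both times in CD14-deficient cells only. The 6 stromal markers summed to 653 and 797 in CD14-deficient cells with LPS and thapsigargin, against 1738 and 2411.5 with LPS alone, and to 586 and 867, against 1356 and 3258, in wild-type cells. Of the 3 tested, Fn1 fell in CD14-deficient cells, with a change of -1.59 ± 0.22 (log2, SE, adjusted p = 0.0227 by limma), and none passed in wild-type cells. Fn1 was higher with thapsigargin at both times in wild-type cells, at 338 and 609, against 281 and 378. The lower wild-type sum came mostly from Dcn, at 131 and 159, against 921 and 2707. The 5 B cell markers summed to 120 and 98.9, against 531 and 248, in CD14-deficient cells and to 74.8 and 81.5, against 76.0 and 150.03, in wild-type cells, and the 1 tested did not pass. Among 14 dendritic cell markers 1 fell in CD14-deficient cells, Flt3, and none of 12 macrophage or 3 tested mast cell and basophil markers passed in either genotype. The macrophage markers summed to 31688 and 27464, against 21050 and 42742, in CD14-deficient cells and to 34554 and 28876, against 46536 and 39617, in wild-type cells. C1qa, C1qb, C1qc, Marco and Mrc1 were lower with thapsigargin at both times in both genotypes, and the other macrophage markers were not. These marker genes were named after their values were seen. In these bulk samples fewer cells of a type and less RNA per cell cannot be told apart, and the part of these markers in the p53 target changes was not tested.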

How the data were processed

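The deposited values were intensity values, a linear signal per probe set made by the authors with MAS5, per the submitters' processing notes. The MAS5 version and scaling used are not given in the sources here. The members and gene lists were chosen with earlier results of these data known. Each of the 10 arrays was scaled to a common 2% trimmed mean of 509 (deposited columns 444 to 553), floored at 13.4, the pooled 25th percentile, and put on the log2 scale. Of 22690 probe sets, 20380 carried 1 gene symbol, 691 several and 1619 none, with 64 controls among the last. Probe sets with 1 symbol and a signal above 99.2, the pooled median, on at least 2 arrays were tested, which left 11649.

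One limma 3.58.1 model per probe set (R 4.3.3) held 6 genotype and treatment levels and a term for 60 h against 48 h, with a trended eBayes, and two-sided p-values were adjusted by Benjamini-Hochberg within each comparison. No condition was repeated, so the spread, with 3 residual and 2.98 prior degrees of freedom, is the departure from a common time shift. The number of arrays limits the precision. Named were all member probe sets, genes of the other p53 lists that passed in a thapsigargin comparison, and for each member the 2 genes of most similar pattern; the brightest probe set stood for a gene outside the members. Scripts were tested on simulated data. Alternatives were other scalings, filters, a pseudocount of 16 in place of the floor, no intensity trend, no time term, 1 probe set per gene, and each stimulated array left out.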

Additional observations from a re-analysis of the deposited data

Results flagged for a closer look

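The LPS responses of 4 probe sets ran in opposite directions in the genotypes, at both 48 and 60 h, against the 1 unstimulated array of each genotype. What share of all probe sets did so is not given here, so the count is not a result about the members. The difference was not tested as such, and of the single responses Perp in CD14-deficient cells alone passed by limma. The others lay closer to 0: the fitted responses in CD14-deficient and wild-type cells were -0.58 and 0.13 for Phlda3, -0.31 and 0.15 for Cdkn1a 1421679_a_at, and 0.08 and -0.59 for Ccng1 1420827_a_at, with standard errors of 0.21, 0.19 and 0.18, and that of Perp in wild-type cells was 0.34 ± 0.29. The mean log2 response in CD14-deficient minus wild-type cells was -2.69 for Perp, -0.71 for Phlda3, -0.46 for Cdkn1a 1421679_a_at and 0.67 for Ccng1 1420827_a_at. Both times of a genotype share 1 unstimulated array, so a high or low signal on it moves both. The unstimulated Perp signal was 119 in CD14-deficient cells and 64.3 in wild-type cells.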

How the results depend on the processing

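The direction of each of the 8 thapsigargin calls in CD14-deficient cells held under each alternative that tested the probe set. The strict filter leaves out Perp, and 1 probe set per gene leaves out Cdkn1a 1421679_a_at, Mdm2 1427718_a_at and Ccng1 1450016_at. The number of calls did not hold, and the cause was not tested. No paired analysis was possible because the labels give no replicate numbers, other than by harvest time. Harvest time is the model's term for 60 h against 48 h. With no term for time, 8 passed for thapsigargin in CD14-deficient cells (6.74% of all probe sets). The counts below are member probe sets called, with the share of all probe sets called in parentheses where it is given.

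For thapsigargin in CD14-deficient cells, against 8 calls, 4 of 19 passed with no filter (0.972% of all probe sets) and 5 of 10 with 1 probe set per gene (6.62% of all). How the count moved with 1 array left out is given above. In wild-type cells, against 0, 1 passed with no intensity trend (0.0944% of all probe sets). The count there moved too without both arrays of low 18S signal and with 1 array left out, as given above. The difference of the effects was 3 calls without both arrays (14.7% of all), against 0, and ran 0 to 6 with 1 left out. For genotype under LPS, against 2, the counts were 0 with no filter, 1 with the strict filter, which does not test Perp, 5 with no term for time, 6 without both arrays (22.3% of all) and 0 to 12 with 1 left out. For the LPS effect in CD14-deficient cells, against 1, the count was 0 with the strict filter (1.47% of all), since the 1 call was Perp. How it moved with arrays left out is given above. In wild-type cells, against 3, they were 1 with no scaling, 1 with the strict filter, 1 with 1 probe set per gene, 0 with no intensity trend, 10 without both arrays (7 of them lower, 52.9% of all) and 0 to 9 with 1 left out. Of probe sets 2-fold higher at both times, 3 of 10 remained with 1 per gene in CD14-deficient cells, against 5 of 17. In wild-type cells 1 remained with no scaling and 2 with quantile normalization, against 4. The share of all probe sets under these alternatives is not given here, so these counts are not a result about the members.

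Some changes that had not passed turned sign. In CD14-deficient cells, no scaling gave -0.027 for Ccng1 1420827_a_at and -0.0033 for Sesn1 1438931_s_at, quantile normalization gave -0.0088 for the first and 0.025 for Zmat3, and without both arrays the values were -0.0096 for Ccng1 1420827_a_at, -0.28 for Plk2, 0.31 for Sesn1 1433711_s_at, 0.34 for Zmat3 and 0.61 for Sesn1 1454699_at. In wild-type cells Mdm2 1427718_a_at was -0.039 with no scaling and -0.045 without both arrays. With 1 array left out, the ranges in CD14-deficient cells were -0.057 to 0.069 for Ccng1 1420827_a_at, -0.30 to 1.48 for Plk2, -0.39 to 0.37 for Zmat3, and -0.62 to 0.38, -1.11 to 0.60 and -0.47 to 0.52 for Sesn1 1433711_s_at, 1454699_at and 1438931_s_at. At the ends of these ranges Plk2 at 1.48 and Sesn1 1454699_at at -1.11 passed, both without the 60 h LPS array. In wild-type cells the ranges were -0.056 to 0.33 for Mdm2 1423605_a_at, -0.21 to 0.26 for Mdm2 1427718_a_at, -0.67 to 0.085 for Plk2, -0.33 to 0.22 for Sesn1 1454699_at and -0.56 to 0.021 for Sesn1 1438931_s_at.

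Signal over background limits Perp, at 24.2 and 28.2 under LPS in CD14-deficient cells: above the floor of 13.4, but a pseudocount of 16 takes its thapsigargin rise to 3.56, against 4.20. Rrm2, at 23.0 and 39.3 with thapsigargin, is also above the floor.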
